A study of Homo sapiens with 18 samples.

Results

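The 42 genes described here encode proteins of the core spliceosome: the U1, U2 and U4/U6.U5 small nuclear ribonucleoprotein particles (snRNPs), the Sm and LSm rings, the SF3A and SF3B complexes of U2, U2AF, and 4 proteins of or near the Prp19 complex. The rule is a list of symbols, drawn up with earlier results of these data known, and all 42 were matched by Ensembl ID among the 60252 genes of the deposited table. The list holds the full set of Sm ring proteins, SNRPB, SNRPD1, SNRPD2, SNRPD3, SNRPE, SNRPF and SNRPG, and of LSm ring proteins, LSM2 to LSM8. The cells were MCF-10A, a human breast epithelial line that is immortal but not malignant and forms hollow spheres in basement membrane gel. Each group stably carried a retroviral construct, holding the open reading frame of 1 factor (the OE groups SRSF2-OE, SRSF4-OE, SRSF6-OE, SRSF9-OE and TRA2B-OE) or none (Control), and polyadenylated RNA was sequenced after 8 days in Matrigel. All groups therefore share the parent line, the viral delivery and the gel culture, and the labels do not say whether a group is a pool of infected cells or 1 clone. The 18 samples came from 14 libraries, since some were sequencing lanes of one library and were summed: SRSF2-OE and SRSF9-OE had 3, while SRSF4-OE, SRSF6-OE, TRA2B-OE and Control had 2.

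Pre-mRNA splicing is carried out by particles that each hold a small nuclear RNA and a set of proteins. U1 recognises the 5′ splice site, U2 and its SF3 complexes hold the branch point, U2AF reads the 3′ splice site, and the U4/U6.U5 tri-snRNP brings the RNAs that form the catalytic centre, helped by the Prp19 complex. SR proteins such as SRSF2 and the related TRA2B bind exons and recruit these particles, so the introduced genes act next to the genes described here. The Sm proteins form a ring around a short uridine-rich site of U1, U2, U4 and U5 RNA, and the LSm proteins form a similar ring on the 3′ end of U6 RNA. U1 RNA is shown as an example of what the Sm ring holds, because that ring has the most even lean in the results. Its gene RNU1-1 lies at chr1:16514122-16514285 on the minus strand of GRCh38, with the sequence from GENCODE 29, written as DNA. Capitals mark the stretch that pairs with 5′ splice sites and the Sm site.
RNU1-1: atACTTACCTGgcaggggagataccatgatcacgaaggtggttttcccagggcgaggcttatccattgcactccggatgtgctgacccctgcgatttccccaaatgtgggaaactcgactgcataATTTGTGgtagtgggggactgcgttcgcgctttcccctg

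The libraries held between 42959069 and 121601376 counts, and mitochondrial genes took 6.45 to 16.4% of them. All 10 mammary epithelial line markers reached a CPM (counts scaled to a library of fixed size) of 1 in at least 1 library. Their summed levels were 16799 to 44609 CPM, and 9 of them were at 1 CPM or more in every library. By OE group, 4 to 7 of the 10 lay above Control. KRT17 averaged 1268 to 4928 CPM in the OE groups and 8345 CPM in Control, and KRT14 2257 to 6096 CPM and 2210 CPM. Luminal secretory markers summed to 244 to 426 CPM in all and to 244 to 289 CPM in Control. The endothelial markers summed to 4.35 to 26.4 CPM in all and to 20.4 to 26.4 CPM in Control. KDR, one of these markers, averaged 5.07 to 9.42 CPM in the OE groups and 23.1 CPM in Control. DESeq2 called it lower in SRSF6-OE and TRA2B-OE, with adjusted p-values of 0.032 and 0.019, where edgeR gave 0.182 and 0.259. TEK, the only other endothelial marker that passed the filter on low counts, lay the other way. It averaged 0.561 to 4.82 CPM in the OE groups and 0.146 CPM in Control. Leukocyte markers summed to 2.71 to 8.23 CPM in all and to 2.71 to 3.63 CPM in Control, and did not go one way. CD14 averaged 3.41 to 4.87 CPM in the OE groups and 1.16 CPM in Control. CD68 averaged 0.22 to 0.809 CPM in the OE groups and 0.991 CPM in Control. ITGAM averaged 0.695 to 1.54 CPM and 0.879 CPM. The part of these markers in the differences described below was not tested. Fibroblast markers summed to 160 to 550 CPM in all, and to 263 to 550 CPM in Control. Of these 8 markers, 3 reached 1 CPM in at least 1 library. Of the introduced factors, SRSF9 stood at 359 to 839 CPM in SRSF9-OE and 92.4 to 95.4 CPM in Control, and SRSF4 at 168 to 187 CPM in SRSF4-OE and 71.4 to 95.5 CPM in Control. SRSF6 overlapped, at 283 to 417 CPM in the libraries labelled SRSF6-OE and 239 to 400 CPM in Control. Over the libraries of all other groups it stood at 237 to 448 CPM. SRSF2-OE replicate 1, at 214 CPM of SRSF2, lay within the 176 to 272 CPM of libraries of other groups, and TRA2B-OE replicate 3, at 147 CPM of TRA2B, within 105 to 168 CPM. The groups are called by their labels throughout, and the introduced SRSF6 was not seen as a higher total level in its own group.

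Transcripts of 37 of the 42 genes passed the filter on low counts. The other 5 were listed at or near 0 over all 14 libraries: LSM2 and U2AF1 with 0 counts, SF3B4 with 1, PRPF31 with 2 and PRPF3 with 39. LSM2 is a subunit of the LSm ring and U2AF1 is the small subunit that reads the AG of the 3′ splice site, and neither value says anything about expression. Of the 41 protein-coding genes within 80 kb of these 5, 39 were also under 50 counts (95.1%), against 35 of 149 (23.5%) around the 37 genes tested, so most of their neighbours were near 0 as well. The cause was not tested.

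Per kilobase of merged exon (GENCODE 29 lengths), the 37 genes covered a wide range of levels in these cells. SF3B5, a small SF3B subunit, averaged 83.7 ± 13.7 CPM per kilobase (SD, n = 14), close to SNRPD2 of the Sm ring at 83 ± 10.7 and SNRNP70, the U1-70K protein, at 81.7 ± 16.2. These leading genes did not differ beyond their spread. LSM6 lay lowest, at 2.03 ± 0.326 CPM per kilobase, below LSM8 at 4.87 ± 0.749 and LSM5 at 6.2 ± 1.2. Within the Sm ring, whose proteins are present in equal number in each particle, the level per kilobase ran between 7.5 ± 0.996 for SNRPG and the value for SNRPD2. The level per kilobase of SNRPG and SNRPE is uncertain because near-identical copies elsewhere in the genome share their reads. Pseudogenes named after SNRPE held 64.5% of the reads assigned to SNRPE and those copies together, those named after SNRPG held 56.9%, and those of SNRPF 3.65%.

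**Figure D1:**
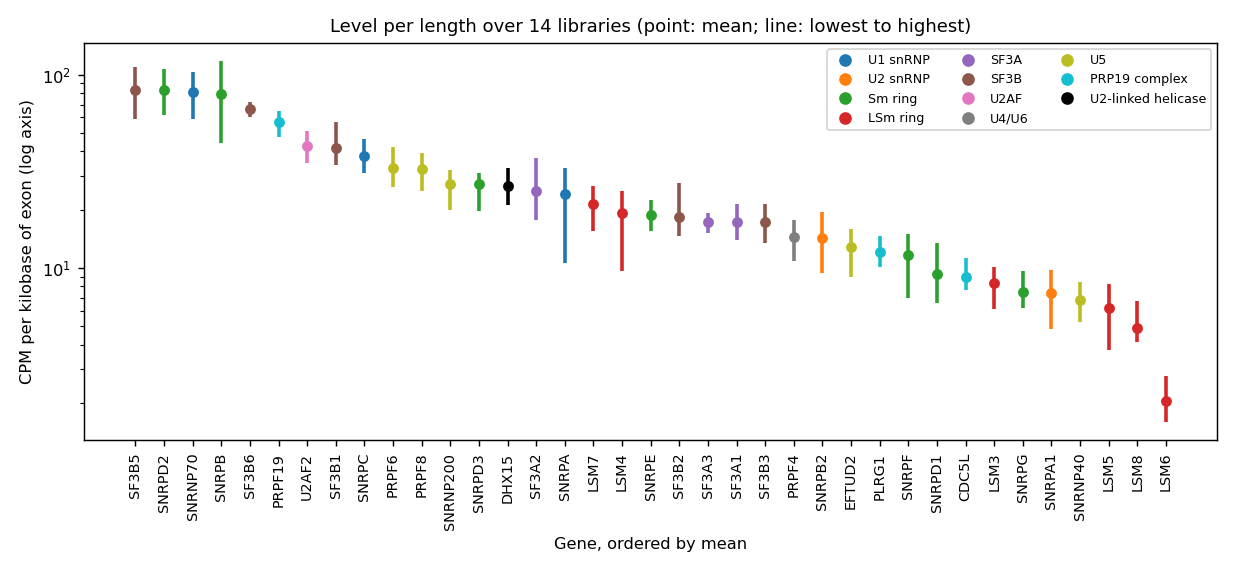
Level of each tested gene in CPM per kilobase of exon on a log axis, ordered by its mean over 14 libraries, with the lowest and highest library as a line and the complex as colour. SF3B5, SNRPD2, SNRNP70 and SNRPB stand at the top and the LSm genes LSM5, LSM8 and LSM6 at the low end.

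As a group these genes varied less between libraries than most. Their coefficient of variation of CPM over the 14 libraries had a median of 15.4%, against 29.1% over all genes tested and 19.8% over the 10422 genes at or above 8.12 CPM, the lowest mean among the 37. The steadiest was SF3B6 (p14), the SF3B subunit that touches the branch point adenosine, at 6.34%, followed by SF3A3 at 7.62%. The most variable were SNRPB, which encodes the Sm proteins B and B′, at 28.9%, and SF3A2 at 27.2%.

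In comparison with Control, most of the 37 genes lay slightly higher in each OE group, and none passed the threshold of the main test. The number above Control was 30 in SRSF2-OE, 32 in SRSF4-OE, 33 in SRSF6-OE, 30 in SRSF9-OE and 31 in TRA2B-OE, while the share of all genes above Control was 53, 46.9, 47.9, 50.2 and 49.9% in the same order of groups. The median log2 fold change of the 37 genes was 0.26 in SRSF2-OE, 0.26 in SRSF4-OE, 0.24 in SRSF6-OE, 0.13 in SRSF9-OE and 0.25 in TRA2B-OE, and that of all genes tested was 0.04, -0.04, -0.03, 0.00 and -0.00. These comparisons share the same 2 Control libraries, so the 5 values are not independent of each other. In bulk RNA, a different share of cells of one type and a different amount of RNA per cell cannot be told apart.

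By edgeR's quasi-likelihood test with Benjamini-Hochberg adjustment over 21326 genes, 0 of the 37 were called at an adjusted p of 0.05 in any OE group. Of all genes, 0% were called in SRSF2-OE, 0% in SRSF4-OE, 0.00469% in SRSF6-OE, 0% in SRSF9-OE and 0.00938% in TRA2B-OE. The smallest adjusted p among the 37 was that of LSM4 in SRSF2-OE (0.192), SRSF4-OE (0.224), SRSF6-OE (0.104) and TRA2B-OE (0.092), and in SRSF9-OE it was 0.870. At an unadjusted p under 0.05, edgeR gave 7 of the 37 in SRSF2-OE, 11 in SRSF4-OE, 8 in SRSF6-OE, 3 in SRSF9-OE and 7 in TRA2B-OE, every one of them higher than Control. At that unadjusted level 13.4, 14.9, 19.5, 4.47 and 12% of all genes were counted in either direction, and 7.02, 7.05, 10.4, 2.54 and 6.62% were counted as higher. DESeq2, run as an alternative, called 1 of the 37 in SRSF2-OE, 2 in SRSF4-OE, 3 in SRSF6-OE, 0 in SRSF9-OE and 1 in TRA2B-OE, all higher. It gave an adjusted p to 17177, 19244, 18417, 21312 and 18831 genes in the same order of groups. Of those genes it called 2.95, 2.94, 6.46, 0.0704 and 2.43% in either direction, and 1.58, 1.56, 4.2, 0.0563 and 1.44% as higher. The DESeq2 calls among the 37 belonged to LSM4, SNRPB and SNRPA. limma-voom called 0 of the 37 in every OE group.

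**Figure D2:**
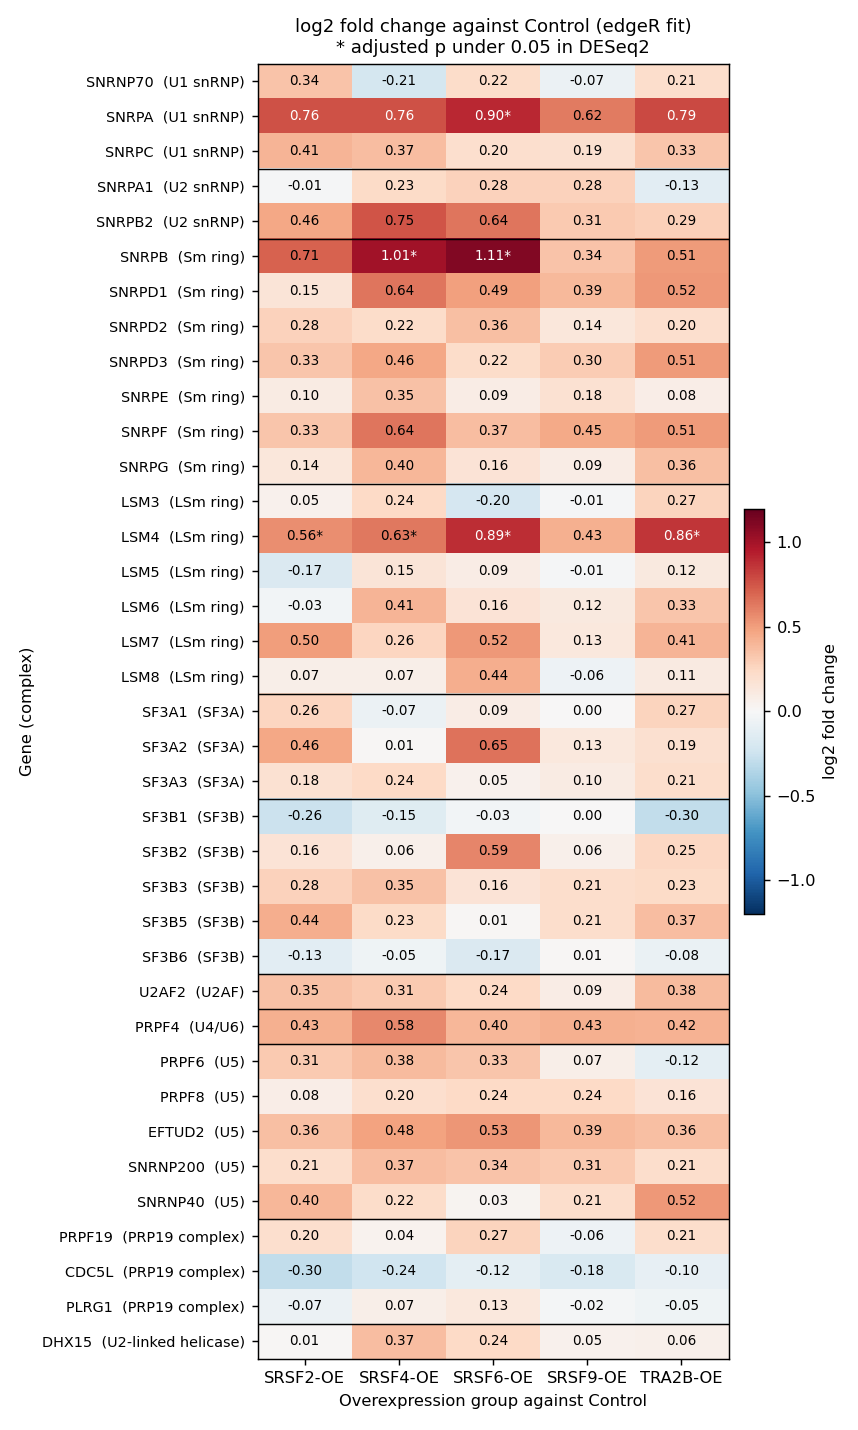
Log2 fold change of each of the 37 tested genes against Control in the 5 OE groups, from the edgeR fit, ordered by complex, with an asterisk where DESeq2 gave an adjusted p under 0.05. The Sm ring rows are above 0 in every column, LSM4, SNRPB and SNRPA carry the asterisks, and CDC5L is below 0 in every column.

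The same lean was seen library by library. Every SRSF2-OE library lay above both Control libraries for 15 of the 37 genes (40.5%, against 16.7% of all genes tested), and every SRSF4-OE library for 23 (62.2%, against 25.3%). The number was 23 in SRSF6-OE (62.2%, against 22.8%), 13 in SRSF9-OE (35.1%, against 16.5%) and 19 in TRA2B-OE (51.4%, against 18.3%). In the other direction, every library lay below both Control libraries for SF3B1 and SF3B6 in SRSF2-OE, for SF3B6 in SRSF6-OE and for PRPF6 in TRA2B-OE, and for 0 genes in SRSF4-OE and SRSF9-OE. That is 5.41, 0, 2.7, 0 and 2.7% of the 37, against 17.5, 27.2, 24.4, 17.6 and 18.2% of all genes, in the order SRSF2-OE, SRSF4-OE, SRSF6-OE, SRSF9-OE and TRA2B-OE.

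**Figure D3:**
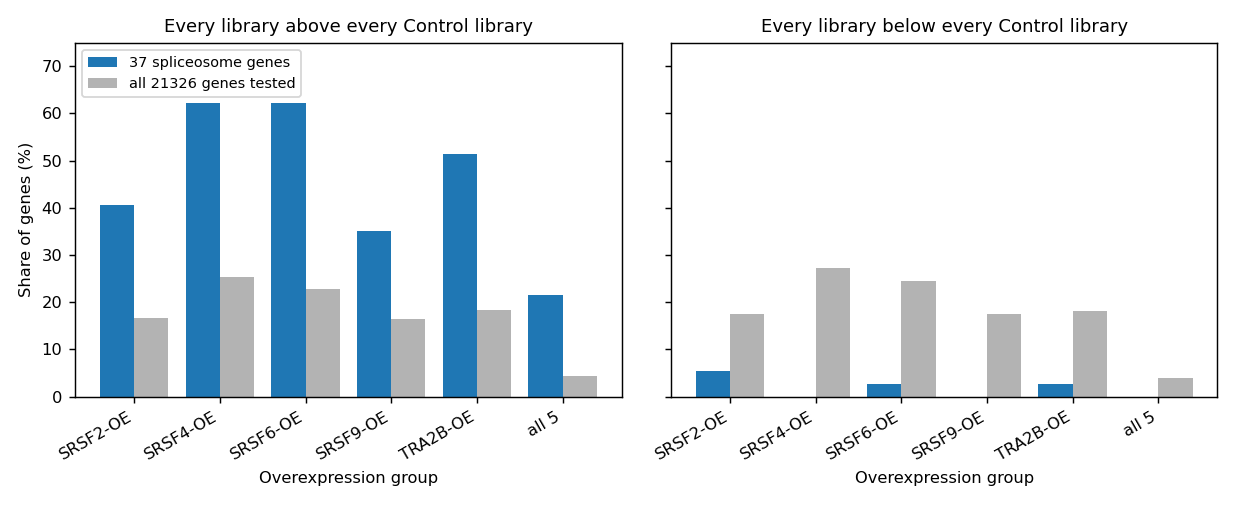
Share of genes, in percent, whose every OE library lay above (left panel) or below (right panel) both Control libraries, for the 37 spliceosome genes (blue) and all 21326 genes tested (grey), by OE group and over all 12 OE libraries. Blue bars exceed grey ones in the left panel and fall short of them in the right panel.

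Over all 12 OE libraries at once, 8 of the 37 genes (21.6%) lay above both Control libraries, against 4.31% of all genes, and 0 lay below, against 3.87%. The 8 were SNRPA and SNRPC of U1, SNRPB and SNRPD3 of the Sm ring, LSM4, SF3B3, PRPF4 and EFTUD2. SRSF2-OE replicate 1 and TRA2B-OE replicate 3 had a level of their own introduced factor within the range of other groups. Without these 2 libraries the number was again 8, against 5.55% of all genes, an alternative chosen after seeing the data. The SRSF6-OE libraries, whose SRSF6 level was also within the range of other groups, were kept in it. By fitted fold change, 24 of the 37 (64.9%) were above Control in all 5 groups, against 23.8% of all genes, 1 (2.7%) was below in all 5, against 22.6%, and 12 were mixed. With only 2 Control libraries, these counts rest on both of them. The Control libraries differed from each other by a median of -0.09 on the log2 scale over the 37 genes (replicates 1-2 minus replicate 3), and 6 of the 37 differed by more than 0.5.

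The Sm ring had the most even lean: all 7 of its genes were above Control in each of the 5 groups, with medians of 0.28 in SRSF2-OE, 0.46 in SRSF4-OE, 0.36 in SRSF6-OE, 0.30 in SRSF9-OE and 0.51 in TRA2B-OE on the log2 scale. SNRPB led it in SRSF2-OE, SRSF4-OE and SRSF6-OE. Its level was 83.8, 129 and 112 CPM in SRSF2-OE, 107 and 151 in SRSF4-OE, 129 and 146 in SRSF6-OE, 82.6, 80.1 and 88.6 in SRSF9-OE, and 106 and 73.3 in TRA2B-OE, against 56.3 and 71.5 CPM in Control. Every OE library was above both Control libraries, SRSF4-OE replicate 3 was highest, and TRA2B-OE replicate 3 was only just above the higher Control library. SNRPB had a log2 fold change of 1.01 ± 0.25 (SE) in SRSF4-OE and 1.11 ± 0.25 in SRSF6-OE, with edgeR adjusted p-values of 0.224 and 0.139. DESeq2 gave adjusted p-values of 0.025 and 0.0073 for those groups. Over the 25 alternatives to the main fit, most of them edgeR fits, the adjusted p-values ran between 0.0063 and 0.864 in SRSF4-OE and between 0.0029 and 0.671 in SRSF6-OE. The alternatives include a fit that treats lanes as replicates. The difference was 0.71 ± 0.25 in SRSF2-OE, 0.34 ± 0.25 in SRSF9-OE and 0.51 ± 0.25 in TRA2B-OE, none called by either tool. In TRA2B-OE 1 library decided the value: the log2 fold change of SNRPB was 0.06 without TRA2B-OE replicates 1-2 and 0.90 without replicate 3. A protein-coding annotation on the same strand, AL049650.1, overlaps 20% of the SNRPB exon bases in GENCODE 29, so the split of reads between them is uncertain.

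Within the rest of the ring, SNRPF measured 29.5, 40.4 and 31.4 CPM in SRSF2-OE, 40.5 and 43.8 in SRSF4-OE, 37.7 and 32.2 in SRSF6-OE, 39.3, 37.7 and 32.8 in SRSF9-OE, and 45.6 and 31 in TRA2B-OE, against 21.3 and 32.7 CPM in Control. The SRSF4-OE and SRSF9-OE libraries were above both Control libraries, while the other 3 groups overlapped them. In SRSF9-OE, where it was among the top 3 of the 37 genes, the log2 fold change of SNRPF was 0.45 ± 0.25 with an edgeR adjusted p of 0.870, and it was 0.17 without Control replicates 1-2 and 1.01 without Control replicate 3. SNRPD3 lay at 61 to 79.2 CPM in the OE libraries and 49.8 to 60.1 CPM in Control, with no overlap. Its largest log2 fold change was 0.51 ± 0.15, in TRA2B-OE, with an edgeR adjusted p of 0.269, and its exons overlap those of GGT1 on the same strand. SNRPD1 was 0.15 to 0.64 and SNRPD2 0.14 to 0.36 above Control over the 5 groups. SNRPE and SNRPG were weaker, with log2 fold changes of 0.08 to 0.35 for SNRPE and 0.09 to 0.40 for SNRPG over the 5 groups. Adding the counts of their pseudogenes, an alternative chosen after seeing the data, left both above Control in every group, at 0.03 to 0.37 for SNRPE and 0.16 to 0.48 for SNRPG.

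Of the U1 proteins, SNRPA, which binds a stem loop of U1 RNA and also limits polyadenylation of its own mRNA, stood out. It measured 67.8, 77.5 and 50.6 CPM in SRSF2-OE, 46.7 and 67.5 in SRSF4-OE, 61.6 and 61.6 in SRSF6-OE, 57.9, 54.6 and 65.2 in SRSF9-OE, and 51 and 65.2 in TRA2B-OE, against 25.1 and 43.4 CPM in Control. All 12 OE libraries were above both Control libraries, and Control replicates 1-2 were well below Control replicate 3. For SNRPA the log2 fold change was 0.76 ± 0.22 in SRSF2-OE, 0.76 ± 0.23 in SRSF4-OE, 0.90 ± 0.23 in SRSF6-OE, 0.62 ± 0.22 in SRSF9-OE and 0.79 ± 0.23 in TRA2B-OE, with edgeR adjusted p-values of 0.152 to 0.870. DESeq2 called it in SRSF6-OE alone, with an adjusted p of 0.017. Over the alternatives for that group the adjusted p ran between 0.0023 and 0.671. The 0.0023 came from entering the 18 samples separately, which treats lanes as replicates. In SRSF6-OE the fold change was 0.62 without SRSF6-OE replicates 1-2 and 1.18 without replicate 3. SNRPC, which stabilises the pairing of U1 with the 5′ splice site, was 43.7 to 59.1 CPM in the OE libraries and 39.5 to 40 CPM in Control.

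SNRNP70, the U1-70K protein that SR proteins are known to contact, did not lean one way. It measured 481, 403 and 470 CPM in SRSF2-OE, 320 and 297 in SRSF4-OE, 376 and 454 in SRSF6-OE, 305, 292 and 420 in SRSF9-OE, and 344 and 481 in TRA2B-OE, against 437 and 277 CPM in Control. The Control libraries spanned most of the range, and every group overlapped them. The log2 fold change of SNRNP70 was -0.21 ± 0.27 in SRSF4-OE and -0.07 ± 0.27 in SRSF9-OE, and leaving out Control replicates 1-2 turned both to 0.30. The U2 proteins SNRPA1 and SNRPB2, which bind U2 RNA together, had different profiles. SNRPB2 measured 27.1, 46 and 36.2 CPM in SRSF2-OE, 44.3 and 50.5 in SRSF4-OE, 40.7 and 47.2 in SRSF6-OE, 32.7, 36.7 and 29.4 in SRSF9-OE, and 46.5 and 24.4 in TRA2B-OE, against 31.1 and 25.9 CPM in Control. The SRSF4-OE and SRSF6-OE libraries were above both Control libraries, with a log2 fold change of 0.75 ± 0.30 in SRSF4-OE and an edgeR adjusted p of 0.294. SNRPA1 measured 17.8, 25 and 23.5 CPM in SRSF2-OE, 34.1 and 28.4 in SRSF4-OE, 35.6 and 29 in SRSF6-OE, 26.5, 27.5 and 26.7 in SRSF9-OE, and 32.9 and 17.6 in TRA2B-OE, against 32.7 and 21.6 CPM in Control. Every group overlapped Control, and the log2 fold change in TRA2B-OE was -0.13 ± 0.20, or 0.10 without TRA2B-OE replicate 3.

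In the LSm ring, LSM4 stood apart from its partners. LSM4 measured 62.7, 63.4 and 59.4 CPM in SRSF2-OE, 52.3 and 63.1 in SRSF4-OE, 62.1 and 75.7 in SRSF6-OE, 52.6, 58.4 and 59.2 in SRSF9-OE, and 62.9 and 72.1 in TRA2B-OE, against 29 and 46.8 CPM in Control. All 12 OE libraries were above the higher Control library, and both label sets of samples showed the difference. Its log2 fold change was 0.56 ± 0.14 in SRSF2-OE, 0.63 ± 0.15 in SRSF4-OE, 0.89 ± 0.15 in SRSF6-OE, 0.43 ± 0.14 in SRSF9-OE and 0.86 ± 0.15 in TRA2B-OE. DESeq2 adjusted p-values for LSM4 were 0.038 in SRSF2-OE, 0.013 in SRSF4-OE, 7.1e-05 in SRSF6-OE and 1.9e-04 in TRA2B-OE, and 0.795 in SRSF9-OE. Over the 25 alternatives to the main fit, most of them edgeR fits, the adjusted p-values ran between 0.025 and 0.922 in SRSF2-OE and 0.005 and 0.864 in SRSF4-OE. They ran between 7.1e-05 and 0.632 in SRSF6-OE, and 1.9e-04 and 0.828 in TRA2B-OE. The 0.025 in SRSF2-OE came from entering the 18 samples separately, which treats lanes as replicates. The size depended on the Control library: without Control replicate 3 the log2 fold change was 0.84 in SRSF2-OE and 0.72 in SRSF9-OE, and without Control replicates 1-2 it was 0.40 and 0.29.

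The other LSm genes were closer to Control. LSM7 measured 45.1, 43.3 and 40 CPM in SRSF2-OE, 32.1 and 36.1 in SRSF4-OE, 40.9 and 40.2 in SRSF6-OE, 33.6, 28.6 and 37.3 in SRSF9-OE, and 32.9 and 43 in TRA2B-OE, against 26.4 and 30.6 CPM in Control. All OE libraries except SRSF9-OE replicate 2 were above both Control libraries, and the largest log2 fold change of LSM7 was 0.52 ± 0.16, in SRSF6-OE, with an edgeR adjusted p of 0.177. LSM3 measured 32.2, 28.2 and 34.5 CPM in SRSF2-OE, 33.4 and 38.6 in SRSF4-OE, 29.8 and 23.2 in SRSF6-OE, 32.6, 33.7 and 24.7 in SRSF9-OE, and 35.7 and 37.6 in TRA2B-OE, against 28.9 and 32.1 CPM in Control. The SRSF4-OE and TRA2B-OE libraries were above both Control libraries and the rest overlapped. Its log2 fold change in SRSF6-OE was -0.20 ± 0.20, and 0.05 without SRSF6-OE replicate 3. LSM5, LSM6 and LSM8 lay between -0.17 and 0.44 on the log2 scale over the 5 groups.

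**Figure D4:**
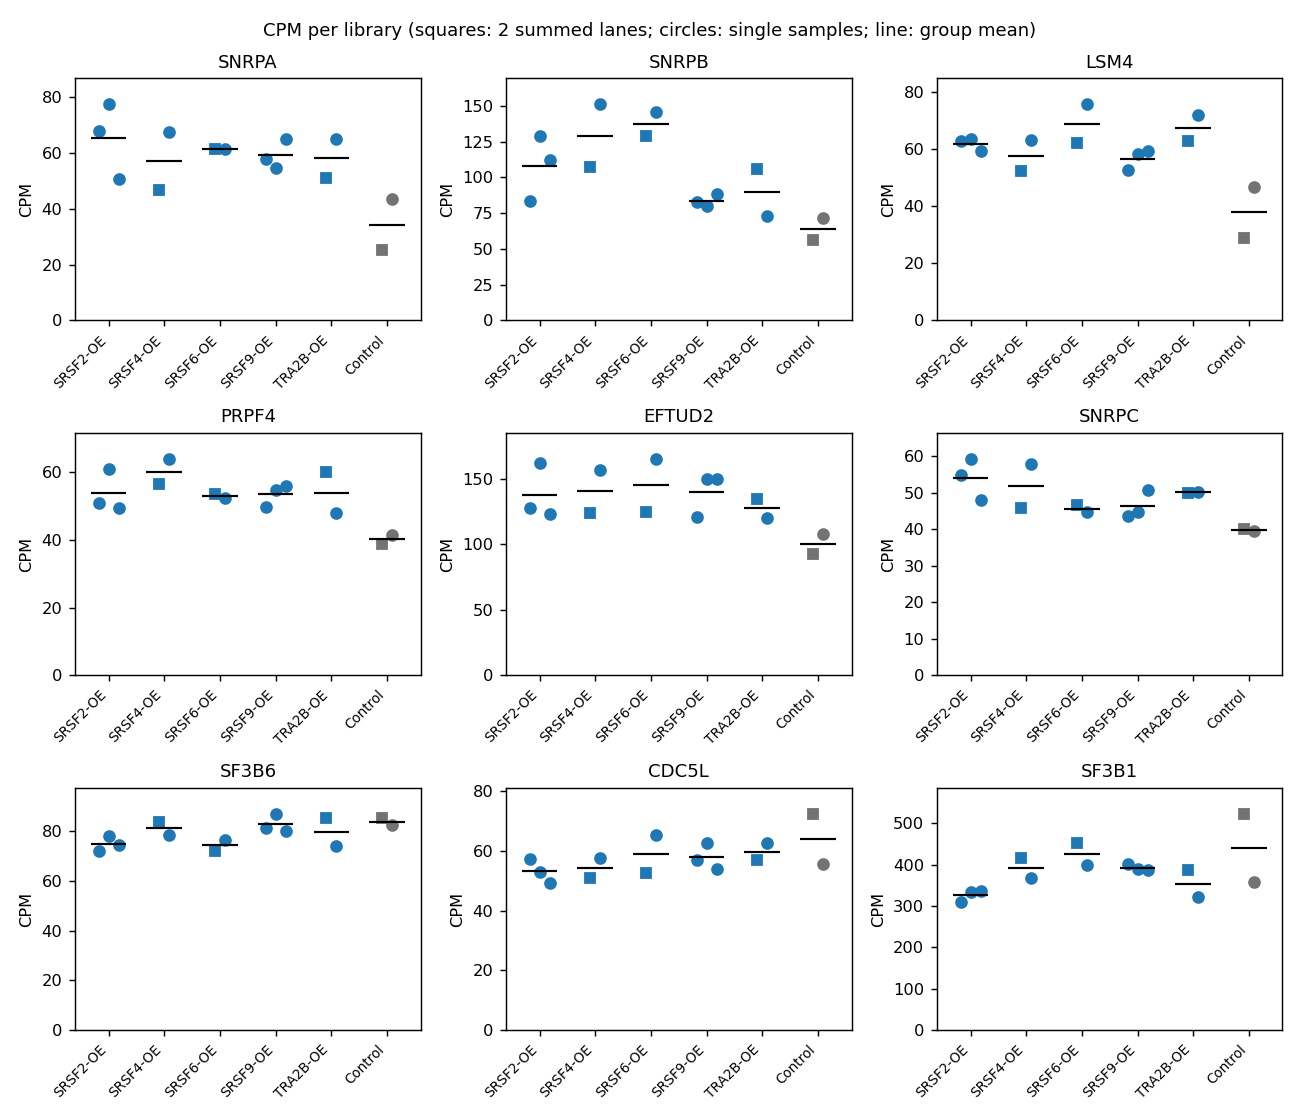
CPM in each library for 9 genes, by group, with OE groups in blue and Control in grey; squares are libraries summed over 2 lanes, circles single samples and lines group means. In the upper 2 rows every OE point lies above both Control points, and in the bottom row SF3B6, CDC5L and SF3B1 overlap Control or lie below it.

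The SF3 genes were mixed, with medians over the 5 groups of 0.01 to 0.26 for SF3A and 0.01 to 0.23 for SF3B on the log2 scale. SF3A2 (SF3a66) measured 91.8, 116 and 71.2 CPM in SRSF2-OE, 59.2 and 65.9 in SRSF4-OE, 88.1 and 108 in SRSF6-OE, 61.5, 57 and 104 in SRSF9-OE, and 55.1 and 88.9 in TRA2B-OE, against 64.1 and 58.8 CPM in Control. Only the SRSF2-OE and SRSF6-OE libraries cleared both Control libraries, with a log2 fold change of 0.65 ± 0.32 in SRSF6-OE and an edgeR adjusted p of 0.281, and 12.7% of its exon bases overlap PLEKHJ1 on the other strand. SF3A3 (SF3a60) measured 89.9, 78 and 83.5 CPM in SRSF2-OE, 87 and 91.5 in SRSF4-OE, 85.3 and 71.4 in SRSF6-OE, 79.6, 81.1 and 76.7 in SRSF9-OE, and 87.8 in both TRA2B-OE libraries, against 78.4 and 73.2 CPM in Control. The SRSF4-OE and TRA2B-OE libraries were above both Control libraries, by a log2 fold change of 0.24 ± 0.13 in SRSF4-OE. SF3A1, the third SF3A subunit, lay between -0.07 and 0.27.

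SF3B1, the large HEAT-repeat subunit of SF3B that is recurrently mutated in blood cancers, was among the lowest of the 37 relative to Control. Its level was 311, 333 and 337 CPM in SRSF2-OE, 416 and 368 in SRSF4-OE, 452 and 400 in SRSF6-OE, 402, 390 and 387 in SRSF9-OE, and 386 and 321 in TRA2B-OE, against 522 and 358 CPM in Control. The 3 SRSF2-OE libraries were below both Control libraries, and all 12 OE libraries were below Control replicates 1-2. The log2 fold change was -0.26 ± 0.15 in SRSF2-OE and -0.30 ± 0.15 in TRA2B-OE, with edgeR adjusted p-values of 0.465 and 0.461, and without Control replicates 1-2 it was -0.13 and -0.11. SF3B6 measured 71.8, 77.9 and 74.3 CPM in SRSF2-OE, 83.4 and 78.5 in SRSF4-OE, 72 and 76.3 in SRSF6-OE, 81.3, 86.7 and 79.9 in SRSF9-OE, and 85.2 and 73.9 in TRA2B-OE, against 85.1 and 82.3 CPM in Control. The SRSF2-OE and SRSF6-OE libraries were below both Control libraries, by -0.13 ± 0.12 and -0.17 ± 0.13 on the log2 scale, differences slightly larger than their SE, with edgeR adjusted p-values of 0.671 and 0.446. SF3B3 lay at 200 to 265 CPM in the OE libraries and 167 to 194 CPM in Control. SF3B2 was 203 and 269 CPM in SRSF6-OE, against 169 and 143 CPM in Control. The log2 fold change of SF3B2 there was 0.59 ± 0.20 with an edgeR adjusted p of 0.195. SF3B5 was 0.01 to 0.44 above Control. U2AF2 (U2AF65), which binds the polypyrimidine tract, was 0.09 to 0.38 above Control on the log2 scale.

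Among the tri-snRNP genes, PRPF4, a U4/U6 protein, was singled out after its values were seen, because it alone had an unadjusted edgeR p under 0.05 beside LSM4 and SNRPA in all 5 groups. It measured 50.8, 60.8 and 49.5 CPM in SRSF2-OE, 56.4 and 63.8 in SRSF4-OE, 53.6 and 52.4 in SRSF6-OE, 49.6, 54.8 and 56 in SRSF9-OE, and 60 and 47.8 in TRA2B-OE, against 38.9 and 41.4 CPM in Control. The groups did not overlap Control, and the 2 Control libraries were close together. The log2 fold change of PRPF4 was 0.43 ± 0.16 in SRSF2-OE, 0.58 ± 0.16 in SRSF4-OE, 0.40 ± 0.16 in SRSF6-OE, 0.43 ± 0.16 in SRSF9-OE and 0.42 ± 0.16 in TRA2B-OE, with edgeR adjusted p-values of 0.229 to 0.870. EFTUD2 (Snu114), the U5 GTPase, lay at 120 to 165 CPM in the OE libraries and 92.9 to 108 CPM in Control, with log2 fold changes of 0.36 to 0.53. PRPF8, the scaffold of the catalytic centre, and SNRNP200 (Brr2), the helicase that unwinds U4 from U6, were 0.08 to 0.24 and 0.21 to 0.37 above Control.

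PRPF6 and SNRNP40 of U5 differed in profile. PRPF6, which bridges U5 and U4/U6, measured 85.8, 128 and 110 CPM in SRSF2-OE, 118 and 117 in SRSF4-OE, 122 and 106 in SRSF6-OE, 89.9, 87.9 and 95.3 in SRSF9-OE, and 86.2 and 80 in TRA2B-OE, against 93.8 and 86.8 CPM in Control. The SRSF4-OE and SRSF6-OE libraries were above and the TRA2B-OE libraries below both Control libraries, with log2 fold changes of 0.38 ± 0.18, 0.33 ± 0.18 and -0.12 ± 0.18, none past the threshold. SNRNP40 measured 31, 31.7 and 24.6 CPM in SRSF2-OE, 23.3 and 28 in SRSF4-OE, 24.9 and 20.2 in SRSF6-OE, 22.7, 25.1 and 28.7 in SRSF9-OE, and 30.9 and 32.6 in TRA2B-OE, against 22.6 and 21.5 CPM in Control. All OE libraries but SRSF6-OE replicate 3 were above both Control libraries, and the log2 fold change in TRA2B-OE was 0.52 ± 0.19, with an edgeR adjusted p of 0.339.

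The Prp19 complex genes were mixed. CDC5L, a Myb-related core subunit, was the 1 gene of the 37 with a fold change below Control in all 5 groups, at -0.30 ± 0.17 in SRSF2-OE, -0.24 ± 0.17 in SRSF4-OE, -0.12 ± 0.17 in SRSF6-OE, -0.18 ± 0.17 in SRSF9-OE and -0.10 ± 0.17 in TRA2B-OE. Its level was 57.2, 53 and 49.2 CPM in SRSF2-OE, 50.8 and 57.7 in SRSF4-OE, 52.6 and 65.4 in SRSF6-OE, 56.9, 62.7 and 53.9 in SRSF9-OE, and 56.8 and 62.4 in TRA2B-OE, against 72.2 and 55.5 CPM in Control. Every OE library was below Control replicates 1-2, but only some were below Control replicate 3, and without Control replicates 1-2 the value of CDC5L turned to 0.10 in SRSF4-OE and 0.07 in SRSF9-OE. PRPF19, the ubiquitin ligase, and PLRG1 lay between -0.06 and 0.27 and between -0.07 and 0.13. DHX15, a helicase linked to U2 and to spliceosome release, was 0.01 to 0.37 above Control.

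Between the OE groups, 0 of the 37 genes passed the edgeR test for any difference among the 5 groups, where 0.0375% of all genes did, and 2 had an unadjusted p under 0.05, against 11% of all genes. Those were SNRPB, with an unadjusted p of 0.041 and an adjusted p of 0.443, and LSM4, with 0.049 and 0.452. DESeq2 gave adjusted p-values of 0.187 and 0.222 for them and called 0 of the 37. It called 4.58% of the 19658 genes to which it gave an adjusted p. In the 10 direct contrasts between OE groups edgeR also called 0 of the 37, where at most 0.0234% of all genes were called, and 10 of the 37 (27%) had an unadjusted p under 0.05 in at least 1 contrast, against 37.6% of all genes. The smallest adjusted p was 0.251, for SF3B5 in SRSF2-OE against SRSF6-OE, at a log2 fold change of 0.44. SNRPB was 0.77 ± 0.24 higher in SRSF6-OE than in SRSF9-OE and 0.68 ± 0.24 higher in SRSF4-OE than in SRSF9-OE on the log2 scale, with edgeR adjusted p-values of 0.408 and 1. LSM4 was 0.45 ± 0.14 higher in SRSF6-OE than in SRSF9-OE, with an adjusted p of 0.408. A p that misses the threshold does not show that the groups were alike.

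Some other measures also differed between the libraries, though not always in step with the 37 genes. The mean log2 CPM of the 37 genes was 6.08 to 6.31 in the 12 OE libraries and 5.93 and 5.97 in the Control libraries. A list of 20 G2 and mitosis genes had a mean log2 CPM of 3.92 to 6.47 in the OE libraries and 3.84 and 5.07 in Control, and 20 of its 20 genes were above Control in every OE group but SRSF9-OE, where 19 were. Its median log2 fold change was 0.51 in SRSF2-OE, 1.37 in SRSF4-OE, 1.47 in SRSF6-OE, 0.39 in SRSF9-OE and 1.47 in TRA2B-OE. A list of 7 MYC-network reference genes (such as NCL, NPM1 and FBL) was at 7.74 to 8.43 in the OE libraries and 7.46 and 7.88 in Control. Of the 7, 6 were above Control in SRSF2-OE and TRA2B-OE and all 7 in SRSF4-OE, SRSF6-OE and SRSF9-OE, with median log2 fold changes of 0.37 in SRSF2-OE, 0.50 in SRSF4-OE, 0.65 in SRSF6-OE, 0.52 in SRSF9-OE and 0.29 in TRA2B-OE, each larger than the median of the spliceosome genes in that group. The part of proliferation or MYC-network levels in the spliceosome differences was not tested.

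**Figure D5:**
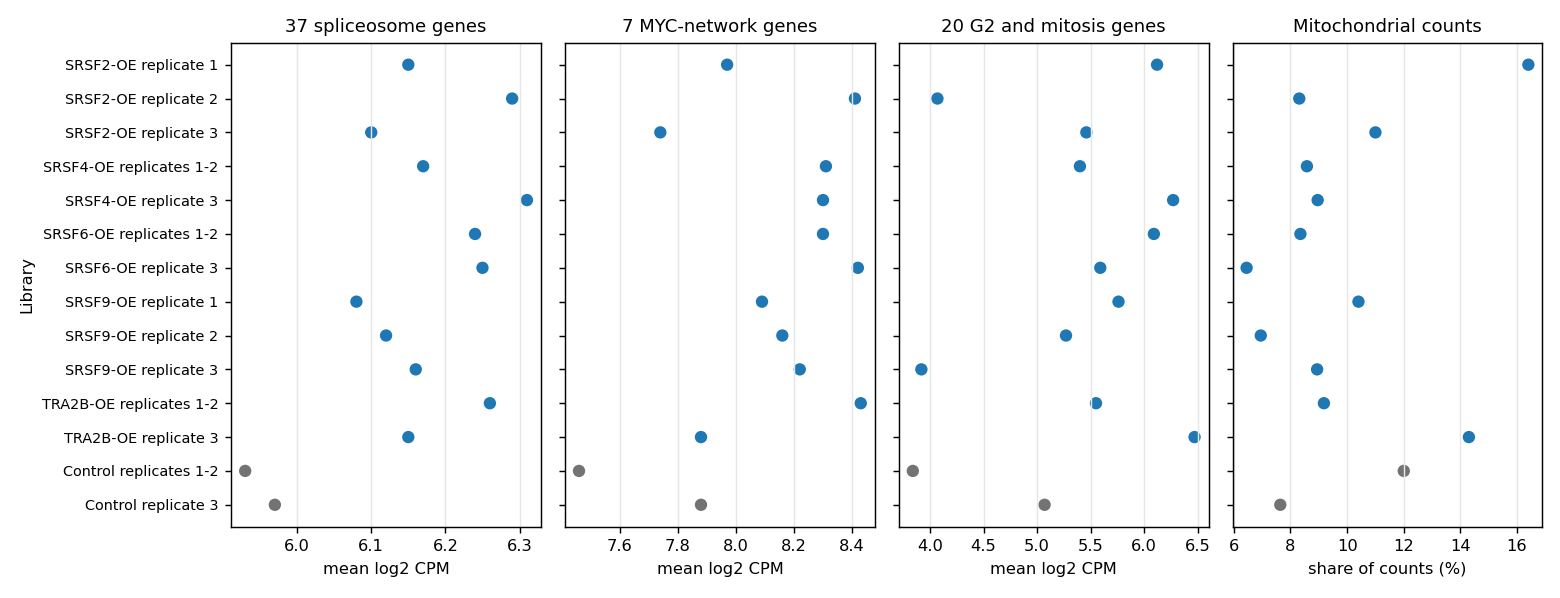
Mean log2 CPM of the 37 spliceosome genes, of 7 MYC-network genes and of 20 G2 and mitosis genes, and the share of counts from mitochondrial genes, for each of the 14 libraries, with OE libraries in blue above Control libraries in grey. In the first panel all OE points lie at 6.08 or more and both Control points below 6.

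The samples fall into 2 sets by the form of their description, one with library IDs and lanes and one with plain numbers, and 4 groups hold both. The library-ID set had 1 library a group and no replicate check. Within it 29 of the 37 genes were above Control in SRSF4-OE, 31 in SRSF6-OE and 31 in TRA2B-OE. The share of all genes above Control was 47.9, 47.5 and 49%. The median log2 ratios of the 37 genes were 0.23, 0.27 and 0.30, while the medians of all genes were -0.02, -0.03 and -0.01. The numbered set rests on 1 Control library. Within it the counts were 29 in SRSF2-OE, 35 in SRSF4-OE, 29 in SRSF6-OE, 32 in SRSF9-OE and 24 in TRA2B-OE. The share of all genes above Control was 50.4, 49, 49, 49.6 and 49.6% in the same order. The medians of the 37 genes were 0.23, 0.33, 0.24, 0.14 and 0.17, while those of all genes were 0.00, -0.01, -0.01, -0.00 and -0.00. The labels do not say what the sets stand for.

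Other spliceosome genes were read from lists of their own. There edgeR called 0 in every list and group, where it called at most 0.00938% of all genes. At most 4 genes of a list had an unadjusted edgeR p under 0.05, against 4.47 to 19.5% of all genes by group. DESeq2 called at most 1 gene of a list, against 0.0704 to 6.46% of the genes to which it gave an adjusted p. The list for snRNP assembly and Sm methylation held 19 genes. Of these, 11 were above Control in SRSF2-OE, 14 in SRSF4-OE, 11 in SRSF6-OE, 15 in SRSF9-OE and 15 in TRA2B-OE. The share of all genes above Control was 53, 46.9, 47.9, 50.2 and 49.9% in the same order. The medians of the list were 0.08 to 0.20. WDR77 (MEP50), the partner of PRMT5 in methylating Sm proteins, had log2 fold changes of 0.81 ± 0.17 in SRSF2-OE, 0.83 ± 0.18 in SRSF4-OE, 0.52 ± 0.18 in SRSF6-OE, 0.56 ± 0.17 in SRSF9-OE and 0.90 ± 0.18 in TRA2B-OE. DESeq2 called it in SRSF2-OE, SRSF4-OE and TRA2B-OE, with adjusted p-values of 0.0062, 0.0052 and 0.0017, where edgeR gave 0.169, 0.212 and 0.127. GEMIN5, which delivers snRNAs to the assembly complex, was 0.38 to 0.70 above Control. The 12 further tri-snRNP genes had medians of 0.06 to 0.19. PPIH had the largest mean over the 5 groups, 0.52, at 0.32 to 0.77, and was not called. DESeq2 called SART1 in SRSF6-OE at 0.76 ± 0.20 and PRPF38B in SRSF4-OE at 0.59 ± 0.15. Its adjusted p-values were 0.024 and 0.025, where edgeR gave 0.154 and 0.224.

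The lists that act with or after the core particles were centred near 0. The median of 17 further U1- and U2-linked genes was -0.15 to 0.04 over the 5 groups, that of 17 further Prp19-related genes -0.07 to 0.04, that of 13 genes of the catalytic steps and release -0.14 to -0.05 and that of 10 minor spliceosome genes -0.12 to 0.05. The 8 Sm and LSm relatives had medians of -0.02 to 0.19. In the Prp19-related list, PPIL1, a peptidyl-prolyl isomerase, was called by DESeq2 in SRSF4-OE and TRA2B-OE, at 0.75 ± 0.20 and 0.86 ± 0.20. In the minor spliceosome list, which serves the rare class of U12-type introns, SNRNP25 was called by DESeq2 in TRA2B-OE at 0.97 ± 0.27, and RNPC3 lay at -1.16 ± 0.48 in SRSF4-OE and -1.31 ± 0.48 in SRSF6-OE with edgeR adjusted p-values of 0.307 and 0.206.

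The promoters of the 3 genes called by DESeq2 and of CDC5L are shown because these genes mark the ends of the range of fold changes. Each is the 300-base RefSeq window, 250 bases before to 50 after the start that RefSeq gives, in GRCh38.p14: LSM4 at chr19:18323027-18323326 on the minus strand, SNRPB at chr20:2470740-2471039 on the minus strand, SNRPA at chr19:40750953-40751252 on the plus strand and CDC5L at chr6:44387456-44387755 on the plus strand. The genes themselves span chr19:18306230-18323274 (LSM4), chr20:2461634-2470853 (SNRPB), chr19:40750637-40765389 (SNRPA) and chr6:44387525-44450426 (CDC5L) in GENCODE 29. The start sites of the annotations differ: the SNRPA window lies wholly inside the GENCODE gene and the LSM4 and CDC5L windows mostly so. Capitals mark CCAAT on either strand (ATTGG in LSM4), and in SNRPB the letters CCGGAAG, a core that ETS factors bind.
LSM4: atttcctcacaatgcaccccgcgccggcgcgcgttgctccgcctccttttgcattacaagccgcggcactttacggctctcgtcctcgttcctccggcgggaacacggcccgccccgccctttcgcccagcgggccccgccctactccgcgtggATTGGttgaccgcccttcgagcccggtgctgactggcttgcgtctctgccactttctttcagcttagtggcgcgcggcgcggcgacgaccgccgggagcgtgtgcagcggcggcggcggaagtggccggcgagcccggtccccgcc
SNRPB: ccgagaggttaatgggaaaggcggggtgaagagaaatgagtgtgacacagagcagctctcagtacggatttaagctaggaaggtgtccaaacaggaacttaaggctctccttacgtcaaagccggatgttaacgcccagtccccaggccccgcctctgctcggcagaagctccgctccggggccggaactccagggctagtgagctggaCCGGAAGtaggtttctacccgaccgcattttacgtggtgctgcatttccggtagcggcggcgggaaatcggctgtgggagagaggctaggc
SNRPA: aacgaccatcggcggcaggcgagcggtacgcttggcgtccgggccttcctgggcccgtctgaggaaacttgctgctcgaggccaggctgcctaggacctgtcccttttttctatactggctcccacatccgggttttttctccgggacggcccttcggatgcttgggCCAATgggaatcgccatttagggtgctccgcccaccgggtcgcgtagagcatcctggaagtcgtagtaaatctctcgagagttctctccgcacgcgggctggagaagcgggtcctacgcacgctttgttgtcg
CDC5L: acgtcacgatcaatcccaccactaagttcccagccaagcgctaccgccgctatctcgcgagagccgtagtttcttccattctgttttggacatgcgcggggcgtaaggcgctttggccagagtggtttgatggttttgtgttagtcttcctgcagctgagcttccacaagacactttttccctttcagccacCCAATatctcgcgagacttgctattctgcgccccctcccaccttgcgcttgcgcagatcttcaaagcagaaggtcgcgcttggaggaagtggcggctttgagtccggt

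Across the tested genes with such a window, 34 in all, the ETS letters CCGGAAG were present on either strand in 18 (52.9%), against 10.3% of all 35116 promoters and 15.2% of the 16492 promoters of genes tested here. The 18 include SNRPB, SNRPB2, PRPF6 and SF3B6, which differ in their fold changes. CCAAT was present in 14 (41.2%), against 34.6% of all promoters and 34.1% of those of genes tested. The E-box CACGTG was present in 2 (5.88%), SF3B1 and EFTUD2, against 7.26 and 9.02%, and TATAAA in 1 (2.94%), SNRPC, against 11.5 and 7.12%. No match of one of these motifs overlapped a match of another in the 4 windows shown. For all 4 motifs the 34 were counted by gene and the comparison promoters by window, so the shares are not like for like. A match of letters is a description of the sequence and says nothing about binding in these cells.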

How the data were processed

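The deposited values are raw read counts per Ensembl gene made by the authors. The submitters' processing notes name Trimmomatic 0.36, STAR 2.5.1b, Subread, featureCounts and GRCh37. Whether strand was used is not given in the sources here. Lanes sharing a library ID were summed (18 samples to 14 libraries). No label says that replicates came from separate cultures, and p-values then reflect library-to-library spread, which may be technical. Depth was 42959069 to 121601376 counts per library.

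Counts were fitted with edgeR 4.0.16 in R 4.3.3 (TMM scaling, filterByExpr with a minimum count of 10, 21326 genes tested, all 6 groups plus a term for the form of the sample description, 7 residual degrees of freedom, quasi-likelihood F tests, Benjamini-Hochberg threshold 0.05). SE is the log2 fold change divided by the square root of F. CPM used TMM library sizes. Scripts were tested on simulated data. Symbols, exon lengths and gene positions came from GENCODE 29 (GRCh38) by Ensembl ID, so lengths need not match the authors' annotation; promoters came from RefSeq GRCh38.p14.

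Members and lists were chosen with earlier results of these data known. Genes given in every library were those called by edgeR or DESeq2, the 3 largest and 2 smallest fold changes per comparison, the 4 smallest p-values of the test among OE groups, and the 2 largest and 2 smallest coefficients of variation. Alternatives were DESeq2 1.42.0, limma-voom 3.58.1, other scaling, filter and design choices, and leaving out libraries. Python 3.11.15 and matplotlib 3.10.9 drew the figures.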

Additional observations from a re-analysis of the deposited data

Results flagged for a closer look

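PRPF6 lay above both Control libraries in every SRSF4-OE library (118 and 117 CPM) and every SRSF6-OE library (122 and 106 CPM), and below both in every TRA2B-OE library (86.2 and 80 CPM), where Control had 93.8 and 86.8 CPM. These opposite directions between groups are why it is listed. The edgeR test of a difference among the 5 OE groups gave an adjusted p of 0.475 for PRPF6, so the difference did not pass the threshold. In direct contrasts the log2 fold change of PRPF6 was 0.50 ± 0.18 in SRSF4-OE against TRA2B-OE and 0.45 ± 0.18 in SRSF6-OE against TRA2B-OE, with edgeR adjusted p-values of 0.784 and 0.343.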

How the results depend on the processing

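Every comparison with Control rests on 2 Control libraries, and the lowest tested gene, LSM6, averaged 8.12 CPM. The number of genes called stayed at 0 to 0 in every comparison when 1 library was left out in turn. With the 18 samples entered separately, which treats lanes as replicates, edgeR called 4 in SRSF2-OE, 14 in SRSF4-OE, 12 in SRSF6-OE and 14 in TRA2B-OE (13 higher, SF3B1 lower), where it called 6.4, 16.5, 19.2 and 13.8% of all genes, and 1 (PRPF6) between OE groups, in SRSF6-OE against TRA2B-OE, where it called 4.63%. DESeq2 called 1, 2, 3 and 1 in the same groups. Without SRSF2-OE replicate 1 and TRA2B-OE replicate 3 together, 1 gene (SNRPB) was called in SRSF4-OE and 1 (SNRPB) in SRSF6-OE, against 0.396 and 0.216% of all genes. With only the 2 groups compared, 6 were called in SRSF4-OE, against 12.2% of all genes.

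The median log2 fold change ranged over the left-out libraries between 0.17 and 0.30 in SRSF2-OE, 0.21 and 0.44 in SRSF4-OE, 0.23 and 0.27 in SRSF6-OE, 0.12 and 0.20 in SRSF9-OE, and 0.16 and 0.28 in TRA2B-OE. In the numbered samples alone it was 0.34 in SRSF4-OE and 0.15 in TRA2B-OE.

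Over the alternatives, fold changes were followed for the called genes and for the 3 largest and 2 smallest in each comparison with Control. Among those, signs turned for 4 genes. LSM7, PRPF6, SF3A2, SF3A3 and PRPF4, though given in every library, were not followed in this way. In the numbered samples alone the log2 fold change was 0.07 for CDC5L and 0.11 for SNRNP70 in SRSF4-OE, and 0.06 and 0.29 in SRSF9-OE. With only the 2 groups compared it was 0.06 for CDC5L and 0.29 for SNRNP70 in SRSF9-OE. Without SRSF2-OE replicate 1 and TRA2B-OE replicate 3 together it was 0.03 for SNRNP70 in SRSF9-OE and 0.10 for SNRPA1 in TRA2B-OE. With 1 library left out, CDC5L ranged between -0.52 and 0.10 in SRSF4-OE and -0.53 and 0.07 in SRSF9-OE, SNRNP70 between -0.60 and 0.30 in SRSF4-OE and -0.58 and 0.30 in SRSF9-OE (0.03 without SRSF9-OE replicate 2 or either TRA2B-OE library), LSM3 between -0.46 and 0.05 in SRSF6-OE (-0.20 without SRSF2-OE replicate 1), and SNRPA1 between -0.38 and 0.10 in TRA2B-OE (-0.18 without Control replicate 3). The cause was not tested.

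Whether replicate numbers pair the samples could not be decided. Of 31 same-numbered pairs, 16 had deviations correlated above 0.1, with r between -0.42 and 0.494 and a median of 0.119. In the smallest groups the deviations of the libraries are mirror images, so pairs between such groups repeat the same r. The 0.494 between SRSF4-OE and SRSF6-OE was counted in this way. Different-numbered pairs were not summarised for comparison. With the replicate number as a block in place of the description term, 0 genes were called in every comparison, and the medians were 0.21 in SRSF2-OE, 0.26 in SRSF4-OE, 0.24 in SRSF6-OE, 0.09 in SRSF9-OE and 0.25 in TRA2B-OE.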
